A study of Mus musculus with 12 samples.

Results

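The 10 genes described here are core parts of the NF-κB pathway: the Rel subunit genes Nfkb1, Nfkb2, Rela and Relb, the IκB genes Nfkbia, Nfkbib and Nfkbiz, and the inducible genes Tnfaip3, Tnfaip2 and Birc3. They were chosen by symbol, and each matched 1 of the 55487 rows of the expression table. Liver RNA was sequenced from 6 severe acute pancreatitis (SAP) libraries and 6 control libraries. All came from wild-type Balb/c mice aged 6 weeks, and the SAP mice had received caerulein, a peptide that mimics cholecystokinin and drives the exocrine pancreas to excess. No source used here gives the dose, the time between caerulein and collection of the liver, or the sex, and the design text speaks of a pair of mouse models that the labels do not tell apart. Whether every library is its own animal is not stated in the labels. The p-values then cover only library-to-library spread, which may be technical.

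NF-κB proteins are dimers of Rel family subunits that wait in the cytoplasm bound to IκB proteins. Signals from tumour necrosis factor, interleukin and Toll-like receptors activate the IκB kinases, IκB is degraded, and the dimers enter the nucleus. Among the genes they induce are their own inhibitors, so that Nfkbia and Tnfaip3 are textbook feedback genes of the pathway. A separate, slower branch runs through the kinase encoded by Map3k14 and ends in dimers of the processed Nfkb2 product with RelB. In hepatocytes the pathway is known for protection from cell death and, together with STAT3, for the acute-phase response. Activation itself is a change in protein stability and location, which transcript levels do not measure.

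Promoter sequence was available for 7 of the 10 genes, from RefSeq on GRCm38.p6, as windows of 250 bases before and 50 bases after each start. The stretches below were chosen because they hold the NF-κB consensus (the κB site) in genes whose transcript levels are described next. Bases matching that consensus on either strand are in capitals, and positions count back from the base before the start.

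Nfkbia, chr12:55492648-55492747, minus strand, positions -100 to -1: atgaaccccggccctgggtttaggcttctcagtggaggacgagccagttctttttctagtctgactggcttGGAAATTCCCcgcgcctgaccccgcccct

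Tnfaip3, chr10:19015411-19015510, minus strand, positions -100 to -1: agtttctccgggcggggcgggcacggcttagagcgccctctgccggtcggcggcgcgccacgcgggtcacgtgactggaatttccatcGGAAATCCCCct

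Nfkb2, chr19:46304692-46304721, plus strand, positions -45 to -16: cgtcacGGGAATTCCCCccctcggggggcc

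The match in Nfkbia began at -29 and that shown in Tnfaip3 at -12. In Nfkb2 a pair of overlapping matches began at -39 and -38, and another lay at -11. The κB consensus was found in windows of 3 of the 7 genes, Nfkb2, Nfkbia and Tnfaip3, against 5.14% of all 27025 genes. Counted by window it was in 5 of the 10 windows of these genes and in 4.51% of all 32851 windows. Nfkb2 and Tnfaip3 have several windows each, which gives more chances of a match. The later windows of Nfkb2 overlap and share a match, which is counted in each. No match was present in the windows of Rela, Nfkbib, Tnfaip2 and Birc3. A looser κB-like pattern, in which only the outer G and C bases of the consensus are fixed, contains every κB match. It was present in windows of 6 of the 7 genes, all but Nfkbib, against 53.5% of all genes, and in 50.8% of all windows. The STAT-type palindrome TTCNNNGAA was found in windows of 1 of the 7 genes, Nfkb2, against 9.55% of all genes, and in 8.30% of all windows.

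Levels are given in TPM, a transcript abundance scaled by transcript length and by the library's total, which allows genes to be set side by side. The unit was inferred from the values. TPM keeps no sequencing depth, so none can be given for any library. The libraries had the transcripts of liver: 6 hepatocyte markers summed to between 46628 and 63735 TPM in SAP and between 101923 and 114176 TPM in control. Of these 6, Alb, Apoa2, Ttr and Cps1 fell, Apoa1 rose and Hnf4a was not past the threshold, with Alb and Apoa2 making up most of the sum. Of the leukocyte marker lists, those of neutrophils and Kupffer cells were mixed. The 10 neutrophil markers summed to 36.5 to 111 TPM in SAP and 4.73 to 19.6 TPM in control, mostly from S100a8 (25.8 TPM in SAP and 2.54 TPM in control) and S100a9 (46.8 TPM in SAP and 4.40 TPM in control). Of 4 tested, S100a8, S100a9 and Retnlg rose and Csf3r was not past the threshold. Ly6g, Mpo and Elane, untested, averaged at most 0.340 TPM in either group. Camp (0.0883 TPM in SAP and 0.373 TPM in control) and Ltf (0.142 TPM in SAP and 0.380 TPM in control) were untested and had the lower mean in SAP. Cxcr2, also untested, ranged from 0.29 to 0.89 TPM in SAP and from 0.04 to 0.13 TPM in control. The 8 monocyte markers summed to 39.1 to 65.1 TPM in SAP and 10.2 to 16.4 TPM in control, mostly from Plac8. All 4 tested members rose, and the ranges of the untested Ly6c2 and Ccr2 overlapped. Of those tested, Itgam and Ms4a4c reached at most 0.52 and 0.56 TPM in control, and the neutrophil marker Retnlg at most 0.90 TPM. A gene was tested if it had at least 1 TPM in at least 6 libraries. These genes met that through their SAP libraries alone, so the filter favoured a rise. F13a1, untested, ranged from 0.18 to 0.59 TPM in SAP and from 0 to 0.10 TPM in control. Chil3, untested, had 5 of 6 SAP libraries above the control range. The 8 Kupffer cell markers summed to 109 to 254 TPM in SAP and 113 to 186 TPM in control, with 2 higher and 3 lower. Marco (44.9 TPM in SAP and 0.975 TPM in control) and Cd68 rose. Clec4f (41.3 TPM in SAP and 66.1 TPM in control), Vsig4 (14.1 and 22.5 TPM) and Timd4 (1.755 and 3.05 TPM) fell, so the similar sums hide opposite changes. In whole tissue, fewer cells of a type and less RNA per cell cannot be told apart.

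Of the 10 NF-κB genes, 8 were tested, and 3 of these rose in SAP livers: Tnfaip2 to 2.43 times and Nfkbiz to 2.19 times the control mean, and Rela to 1.17 times. In limma 0 of the 8 fell. At an unadjusted p under 0.05 Birc3 was lower and Nfkbib higher, but both missed the adjusted threshold. In all 5 missed it, among them the feedback inhibitor gene Nfkbia. A gene counted as changed at an adjusted p under 0.05 in limma, fitted to log2(TPM + 1) of every gene with at least 1 TPM in at least 6 libraries. All 8 tested members reached 1 TPM in every library, while Relb did so in 2 and Tnfaip3 in 3, which left those 2 genes untested. Across all 11344 genes tested, 44.5% were past the threshold, 19.5% higher and 25.0% lower, so the share of members past it in either direction (37.5%) lay near that of all genes. The median log2 change was 0.24 for the 8 members and -0.03 for all genes.

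**Figure D1:**
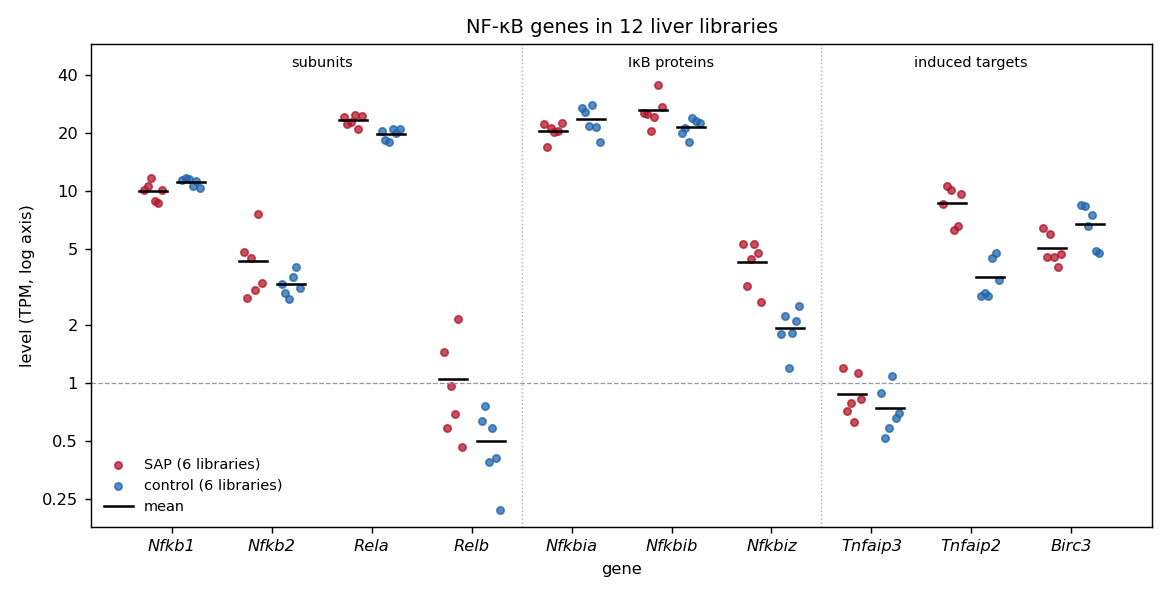
Level of each of the 10 genes in TPM on a log axis, with 1 point per library, 6 SAP libraries left of 6 control libraries, and a line at the group mean. The dashed line marks 1 TPM; only Nfkbiz and Tnfaip2 have SAP points that all lie above every control point.

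The subunit genes were led by Rela (chr19:5637483-5648130, plus strand, GENCODE M21 on GRCm38), which encodes the main activating subunit of the canonical branch. Rela ranged from 20.9 to 24.9 TPM in SAP with a median of 23.5, and from 18.05 to 21.01 TPM in control with a median of 20.2. The groups overlapped by 1 library, since 5 of 6 SAP values lay above every control value. Rela rose by 0.22 ± 0.07 on the log2 scale (SE; limma adjusted p = 0.0146), the smallest change among the members that passed. Its call was kept in 22 of 23 alternative settings, the exception being the 7 libraries with over 30 TPM of the nuclear RNA Xist (change 0.21, adjusted p = 0.0736), of which 2 are SAP.

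Nfkb1, whose precursor is processed to the common partner of RelA, was the steadiest of the 10 genes in control. It ranged from 8.64 to 11.6 TPM in SAP (median 10.2) and from 10.4 to 11.7 TPM in control (median 11.3). In SAP, 4 of 6 libraries lay under the lowest control library, yet the groups overlapped. The log2 difference was -0.14 ± 0.08 (SE; limma adjusted p = 0.142), and in the 7 libraries with over 30 TPM of Xist it was -0.02.

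Nfkb2 and Relb, the subunits of the slower branch, were low in most libraries and had a wider range in SAP than in control. Nfkb2 ranged from 2.79 to 7.57 TPM in SAP (median 3.91) and from 2.75 to 4.01 TPM in control (median 3.205). Relb ranged from 0.47 to 2.16 TPM in SAP (median 0.83) and from 0.22 to 0.76 TPM in control (median 0.50). The highest value of both genes came from the library SAP 14 and the next from SAP 10, while the other SAP libraries lay among or just above the controls. The log2 difference of Nfkb2 was 0.27 ± 0.17 (SE; limma adjusted p = 0.234), and 0.12 without SAP 14 (adjusted p = 0.477). Within the 7 libraries with over 30 TPM of Xist, which leave out SAP 14, Nfkb2 was past the threshold (0.37, adjusted p = 0.0434), with 4.50 and 4.81 TPM in the 2 SAP libraries and 2.96 to 4.01 TPM in the 5 control libraries. Relb had a log2 difference of 0.41 when no filter was applied, and was not past the threshold there (adjusted p = 0.152).

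The coefficient of variation of Nfkb2 was 40.9% in SAP and 13.7% in control, and that of Relb was 61.1% in SAP and 39.3% in control. For Rela it was 6.85% in SAP and 6.39% in control. The widest Nfkb2 values belonged to SAP 14. The ratio of Nfkb2 to Nfkb1 was 0.876 in SAP 14, between 0.263 and 0.473 in the other SAP libraries and between 0.238 and 0.357 in control. The ratio of Relb to Rela ranged from 0.0191 to 0.103 in SAP and from 0.0105 to 0.0411 in control, again highest in SAP 14. Summed over the 4 genes, subunit transcripts ranged from 36.1 to 40.7 TPM in SAP and from 32.7 to 35.7 TPM in control, with Rela making up 60.3 ± 4.72% in SAP and 57.0 ± 2.23% in control (SD, n = 6 each). The sums did not overlap between groups, which is given as a description with no test.

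Of the 3 IκB genes, 1 rose, Nfkbiz. Nfkbia and Nfkbib encode the classical cytoplasmic inhibitors that are degraded on activation, and neither was past the threshold. Nfkbia ranged from 16.9 to 22.5 TPM in SAP (median 20.9) and from 18.01 to 28.01 TPM in control (median 23.7). All but 1 of the SAP values lay inside the control range. Its log2 difference was -0.18 ± 0.11 (SE; limma adjusted p = 0.187), negative in all 23 alternative settings and past the threshold in 0 of them, with adjusted p between 0.0504 and 0.599.

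Nfkbib ranged from 20.4 to 35.6 TPM in SAP (median 25.1) and from 17.9 to 23.8 TPM in control (median 21.9). The highest value was again that of SAP 14, though 5 of 6 SAP libraries lay above every control library. The log2 difference was 0.27 ± 0.11 (SE; limma adjusted p = 0.0667). It passed with quantile normalization (adjusted p = 0.0484) and without SAP 12 (0.0196), and was 0.04 within the 7 libraries with over 30 TPM of Xist (adjusted p = 0.803). In GENCODE M21, Nfkbib exons share 314 bases with those of Ccer2 and 42 with those of Sirt2, both on the opposite strand, and no source used here says how strand was handled. Exons of Nfkb2 likewise share 531 bases with AC114539.1 and 299 with Psd, and those of Tnfaip2 share 314 with the antisense gene Gm40578. Sirt2, which has the smallest of these overlaps, averaged 33.5 TPM in SAP and 34.7 TPM in control. The part of any overlap in the member levels was not tested.

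Nfkbiz (chr16:55811375-55838899, minus strand) encodes IκBζ, an inducible nuclear IκB that acts as a co-activator on a subset of NF-κB target genes rather than as a cytoplasmic anchor. It ranged from 2.64 to 5.31 TPM in SAP (median 4.6) and from 1.20 to 2.53 TPM in control (median 1.965). All 6 SAP libraries lay above all 6 control libraries, by a narrow margin at SAP 15 (2.64 TPM) and control 8 (2.53 TPM). Nfkbiz rose by 0.82 ± 0.16 on the log2 scale (SE; limma adjusted p = 7.53e-04). It stayed past the threshold in all 22 alternative settings in which it was tested, with a change of 0.71 to 1.08.

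Ratios between transcripts of the member IκB genes Nfkbia, Nfkbib and Nfkbiz, taken within a library, overlapped between the groups. The ratio of Nfkbia to Nfkbib ranged from 0.576 to 1.04 in SAP and from 0.803 to 1.35 in control. The ratio of Nfkbiz to Nfkbia ranged from 0.117 to 0.262 in SAP and from 0.0554 to 0.1405 in control, with SAP 15 the only SAP library inside the control range. The sum of Nfkbia and Nfkbib over the sum of the 4 subunits was 1.21 ± 0.13 in SAP and 1.30 ± 0.11 in control (SD, n = 6 each), with overlapping groups. These ratios are descriptions with no test.

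**Figure D2:**
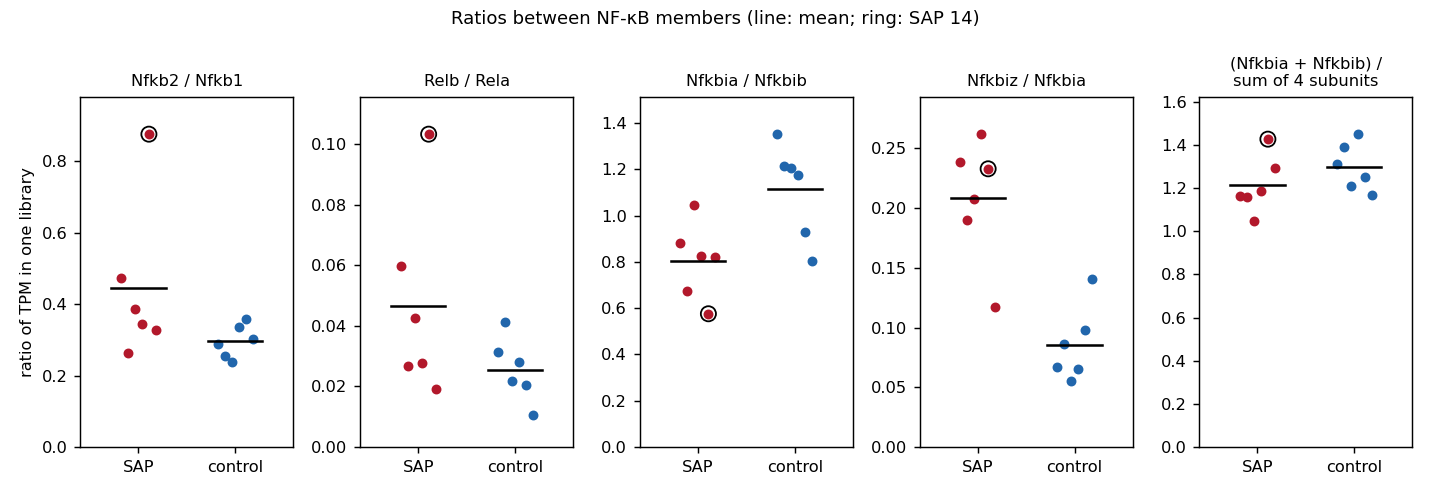
Ratios of TPM between members within a library, with 6 SAP libraries left of 6 control libraries, lines at the group means, axes starting at 0 and a ring around SAP 14. SAP 14 is highest for Nfkb2 to Nfkb1 (0.876) and Relb to Rela (0.103), while Nfkbiz to Nfkbia is above the control range in 5 of 6 SAP libraries.

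Of the 3 inducible genes, 1 rose, Tnfaip2, while Birc3 was not past the threshold and Tnfaip3 was not tested. Tnfaip2 (chr12:111442469-111455018, plus strand), a gene first known from its induction by tumour necrosis factor and abundant in myeloid and endothelial cells, ranged from 6.26 to 10.6 TPM in SAP (median 9.095) and from 2.83 to 4.74 TPM in control (median 3.195). Its groups did not overlap: the lowest SAP library had 6.26 TPM and the highest control library 4.74 TPM. Tnfaip2 rose by 1.08 ± 0.15 on the log2 scale (SE; limma adjusted p = 6.87e-05), the largest change among the 8 tested members, and stayed past the threshold in all 23 alternative settings (1.02 to 1.26). The summed neutrophil and monocyte markers were higher in the SAP libraries, with the neutrophil list mixed gene by gene as given above. Of 8 sinusoidal endothelium markers 4 rose, among them Stab1 (22.4 TPM in SAP and 13.1 TPM in control). The other 4 (Stab2, Clec4g, Kdr and Oit3) were not past the threshold, each with the lower mean in SAP. Summed, the 8 ranged from 142 to 204 TPM in SAP and from 124 to 173 TPM in control, with overlap. The part of these markers in the Tnfaip2 result was not tested.

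Tnfaip3, the ubiquitin-editing enzyme that shuts off the pathway, stayed near 1 TPM. It ranged from 0.63 to 1.20 TPM in SAP (median 0.81) and from 0.52 to 1.09 TPM in control (median 0.68), with 2 of 6 SAP libraries above the control range. Without a filter its log2 difference was 0.11 and not past the threshold (adjusted p = 0.538). Birc3, a ubiquitin ligase of tumour necrosis factor receptor complexes and another known NF-κB target, ranged from 4.03 to 6.41 TPM in SAP (median 4.63) and from 4.75 to 8.46 TPM in control (median 7.05). In SAP, 4 of 6 libraries lay under the control range. Its log2 difference was -0.35 ± 0.15 (SE; limma adjusted p = 0.0734). It passed as lower without SAP 10 (adjusted p = 0.0450), control 7 (0.0353) or control 8 (0.0302), and was -0.08 within the 7 libraries with over 30 TPM of Xist (adjusted p = 0.812).

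**Figure D3:**
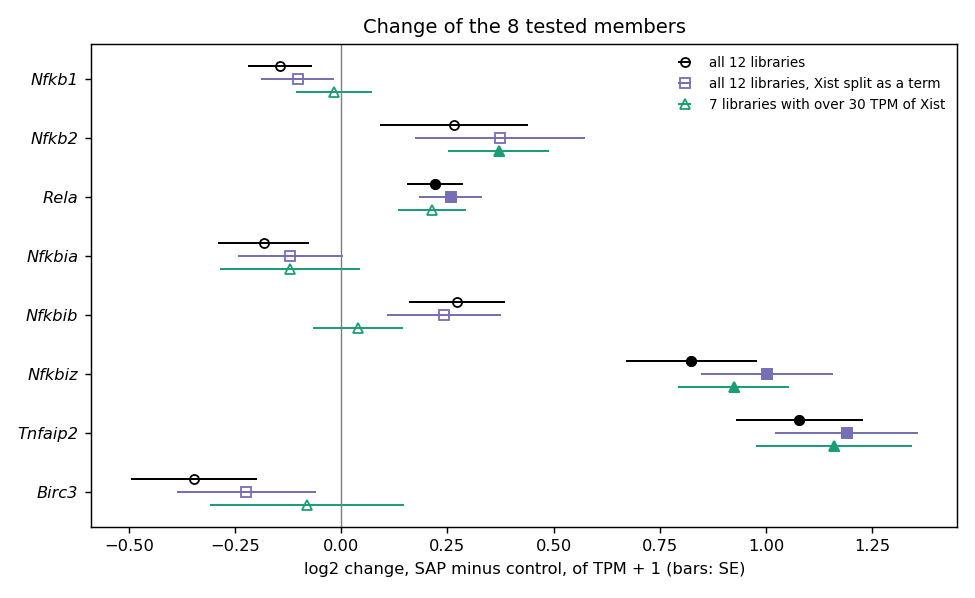
Log2 change of the 8 tested members (SAP minus control, of TPM + 1) with its SE, from all 12 libraries, from all 12 with the Xist split as a term, and from the 7 libraries with over 30 TPM of Xist. Filled symbols have an adjusted p under 0.05; Nfkbiz and Tnfaip2 are filled in all 3 fits, Rela in the first 2 and Nfkb2 in the last.

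The split by Xist runs across the groups: 7 libraries had 49.1 to 60.7 TPM (SAP 10, SAP 12 and controls 3, 4, 6, 7 and 8) and 5 had 4.59 to 17.1 TPM (SAP 11, 13, 14, 15 and control 5). Control 5 had the lowest value of all 12 libraries for 5 members (Nfkb2, Rela, Nfkbib, Nfkbiz and Tnfaip2), and SAP 14 the highest for 3 (Nfkb2, Relb and Nfkbib) and the lowest for 2 (Nfkb1 and Birc3). With SAP 14 and control 5 both left out, Nfkbiz (0.71, adjusted p = 0.00368), Tnfaip2 (1.098, adjusted p = 1.70e-04) and Rela (0.23, adjusted p = 0.0117) were past the threshold.

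Ordered by level, the members fell into tiers. In SAP, Nfkbib (26.3 ± 5.07 TPM), Rela (23.3 ± 1.595) and Nfkbia (20.6 ± 2.04; SD, n = 6) came first, and in control Nfkbia (23.7 ± 3.87), Nfkbib (21.4 ± 2.20) and Rela (19.8 ± 1.27; SD, n = 6). Within this tier the ranges of neighbours overlapped in both groups, and all 3 lay above Nfkb1 without overlap in both groups. Tnfaip2 averaged 8.64 ± 1.86 TPM in SAP and 3.55 ± 0.86 TPM in control, and Birc3 averaged 5.04 ± 0.94 TPM in SAP and 6.76 ± 1.66 TPM in control (SD, n = 6), so that Tnfaip2 stood above Birc3 in SAP and below it in control. In SAP the ranges of Tnfaip2 and Birc3 overlapped slightly (Tnfaip2 from 6.26 TPM, Birc3 up to 6.41 TPM). In control they did not, by a very narrow margin (Tnfaip2 up to 4.74 TPM, Birc3 from 4.75 TPM). The ratio of Birc3 to Tnfaip2 within a library ranged from 0.426 to 0.745 in SAP and from 1.03 to 2.96 in control.

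Likeness of profile was measured as the root mean square difference between gene-centred log2(TPM + 1) values over the 12 libraries, as a description. These values keep the difference between the groups, so genes with a like change lie near each other. The nearest genes lie below the median by construction. Nfkbia and Birc3 were each other's nearest members (0.184), as were Rela and Nfkbib (0.213), while Tnfaip2 and Birc3 lay farthest apart (0.804). Over all genes tested, the nearest to Tnfaip2 were Gata4, an endothelial and stellate cell transcription factor in adult liver (0.133), the inhibitory Smad gene Smad6 (0.152) and the haem oxygenase gene Hmox1 (0.179), against a median of 0.626 over all genes. The nearest to Nfkbiz were the hepatocyte factor gene Foxa3 (0.173), the interleukin-17 receptor gene Il17ra (0.177) and the thrombopoietin gene Thpo (0.186), against a median of 0.552. Il17ra averaged 6.91 TPM in SAP and 3.62 TPM in control.

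Around the 10 members, 101 further genes of the pathway were counted from lists chosen with earlier results of these data known, which are no independent evidence of direction. Of the 76 tested, 38 were higher, 7 lower and 31 not past the threshold, with a median log2 change of 0.30. The share past the threshold in either direction was 59.2% here and 44.5% over all genes tested, of which 19.5% were higher and 25.0% lower. In lists, it was 33.3% for kinases, 50% for ubiquitin ligases and negative regulators, 53.3% for adaptors, 70.6% for targets and 85.7% for receptors. By role, the median log2 change of the tested genes was 1.18 for the other Rel and IκB family genes, 0.76 for ligands, 0.66 for targets, 0.64 for receptors, 0.19 for adaptors, 0.16 for negative regulators, 0.06 for kinases with their partners and -0.07 for ubiquitin ligases. The first of these rests on 2 genes and that of the ligands on 3. A low gene can pass the filter of 6 libraries through 1 group alone. Tlr2 reached 1 TPM in 6 libraries, all SAP. Ier3 did so in 7 libraries and Tab3 and Map3k14 in 8, with every SAP library among them. Such genes are in the higher counts of these lists.

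Of 5 further Rel and IκB family genes 2 were tested, and both rose. Bcl3, another nuclear IκB, ranged from 29.5 to 65.0 TPM in SAP and from 6.75 to 15.4 TPM in control, with no overlap, and rose by 2.05 ± 0.24 (SE; limma adjusted p = 1.52e-05). The ratio of Bcl3 to Nfkbia ranged from 1.31 to 3.17 in SAP and from 0.261 to 0.769 in control. Nfkbie, a cytoplasmic inhibitor, averaged 2.94 TPM in SAP and 2.17 TPM in control and rose by 0.30 (limma adjusted p = 0.0259). The Nfkbie call was lost without SAP 11 (adjusted p = 0.0537), SAP 12 (0.0548) or control 3 (0.0531), with SAP 14 and control 5 both left out (0.0739) and without a filter (0.0604). The other 3 genes of the list, the subunit gene Rel and the regulators Nfkbid and Nkrf, were not tested and reached at most 1.41 TPM.

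Ligand transcripts were scarce. Of 9 genes 3 were tested, and all 3 rose: Il1b (3.79 TPM in SAP and 1.11 TPM in control; 1.13, limma adjusted p = 8.46e-04), Il1a (2.16 TPM in SAP and 1.05 TPM in control; 0.62, adjusted p = 8.19e-04) and Tnfsf12 (9.83 TPM in SAP and 5.49 TPM in control; 0.76, adjusted p = 0.00617). Tnfsf12 was not past the threshold within the 7 libraries with over 30 TPM of Xist (adjusted p = 0.0613). The tumour necrosis factor gene Tnf averaged 0.193 TPM in SAP and 0.0467 TPM in control and was not tested.

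Of 11 receptor genes 7 were tested, with 5 higher, 1 lower and 1 not past the threshold. Among the higher, Tlr2 reached at most 0.72 TPM in control and was tested only through its SAP libraries. Tnfrsf12a, the receptor for the Tnfsf12 product, ranged from 10.7 to 52.1 TPM in SAP and from 4.75 to 7.20 TPM in control (1.87 ± 0.27 SE; limma adjusted p = 8.88e-05), and its highest value was that of SAP 14. The interleukin-1 receptor chains went in opposite directions. Il1r1, the chain that binds the ligand, ranged from 20.3 to 51.9 TPM in SAP and from 8.26 to 14.3 TPM in control (1.59, limma adjusted p = 3.41e-05), while its accessory chain Il1rap ranged from 21.6 to 44.1 TPM in SAP and from 57.6 to 64.9 TPM in control (-0.89, limma adjusted p = 9.08e-05). The tumour necrosis factor receptor gene Tnfrsf1a rose by 0.64 (64.1 TPM in SAP and 40.7 TPM in control; limma adjusted p = 1.29e-05).

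Downstream of the receptors, 15 of 17 adaptor genes were tested, with 7 higher, 1 lower and 7 not past the threshold. Myd88, the adaptor of Toll-like and interleukin-1 receptors, ranged from 12.5 to 19.2 TPM in SAP and from 7.28 to 8.63 TPM in control (0.93 ± 0.10 SE; limma adjusted p = 5.73e-06). The kinase gene Irak1 rose by 0.38 and Ripk1 by 0.45, and the bridging adaptor Tirap fell by 0.36, a call not kept within the 7 libraries with over 30 TPM of Xist (adjusted p = 0.219). The list of kinases also holds the kinase partner genes Tab1, Tab2 and Tab3 and the regulatory subunit gene Ikbkg. All 12 genes of this list were tested, and 4 were higher, 0 lower and 8 not past the threshold in limma. Of these 8, Chuk was lower and Ikbkg higher at an unadjusted p under 0.05. The IκB kinase complex genes Ikbkb (28.4 TPM in SAP and 28.8 TPM in control), Chuk (25.2 TPM in SAP and 30.8 TPM in control) and Ikbkg (29.98 TPM in SAP and 22.8 TPM in control) were among the 8. Those past the threshold were the partner genes Tab2 (0.47) and Tab3 (0.36) and the kinase genes Map3k1 (0.68) and Map3k14 (0.59, with 1.68 TPM in SAP and 0.753 TPM in control).

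Among the ubiquitin ligase and linear ubiquitin genes 2 of 8 were higher, 2 lower and 4 not past the threshold. Of the 3 subunits of the linear ubiquitin assembly complex, Rnf31 rose by 0.63 (limma adjusted p = 4.23e-04) and Sharpin fell by 0.44 (limma adjusted p = 0.00291). The third, Rbck1, was not past the threshold (-0.15, limma adjusted p = 0.281). Ube2v1 fell by 0.27, a call not kept with quantile normalization (-0.04, adjusted p = 0.612) or with SAP 14 and control 5 both left out (adjusted p = 0.0607). Of 12 tested negative regulators, from a list of 14, 3 were higher, 3 lower and 6 not past the threshold. Tnip2, a partner of the Tnfaip3 product, rose by 0.85 (4.91 TPM in SAP and 2.27 TPM in control), Tax1bp1, another partner, rose by 0.43, and Commd1, which promotes degradation of RelA, fell by 0.52 (35.4 TPM in SAP and 51.1 TPM in control).

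Known NF-κB target genes held the largest changes. Of 17 tested, from a list of 25, 12 were higher, 0 lower and 5 not past the threshold in limma, with 1, Bcl2l1, lower at an unadjusted p under 0.05. The top genes by adjusted p were the acute-phase gene Saa3 (9.90), Lcn2 (5.85) and the chemokine gene Ccl5 (4.24), all without overlap between groups. Among the 5 not past the threshold were Vcam1, with a log2 difference of -0.38 (limma adjusted p = 0.112), and Gadd45b, with -0.42 (0.228); both were named after their values were seen. Ranges of SAP and control did not overlap for 25.6% of all genes tested; among the 8 tested members this held for 2, Nfkbiz and Tnfaip2.

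**Figure D4:**
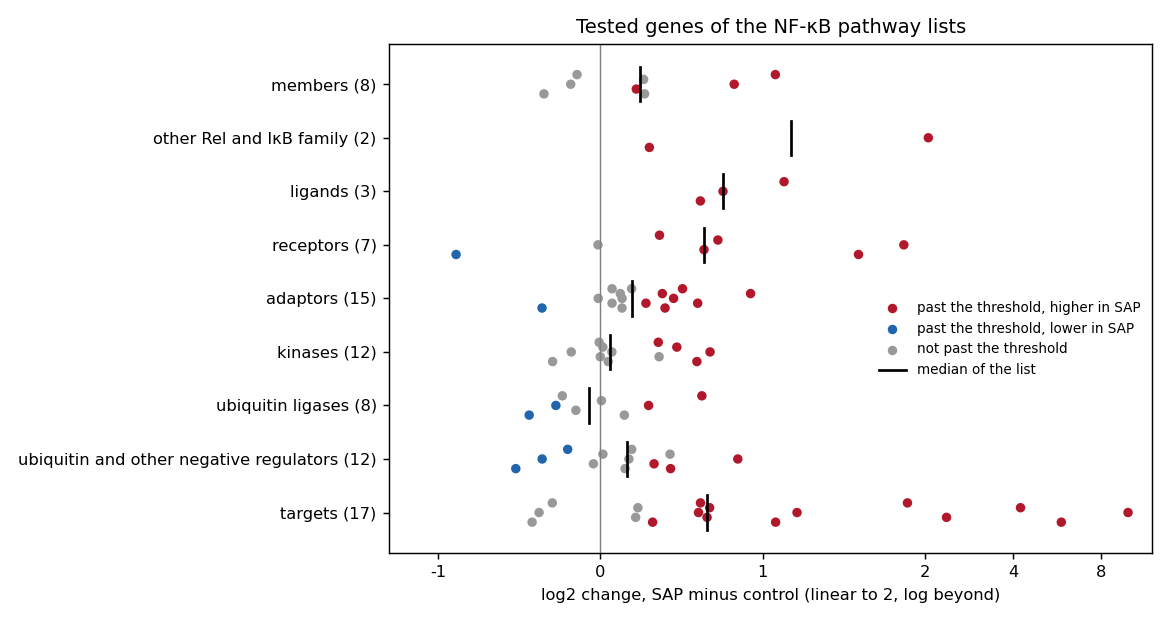
Log2 change (SAP minus control) of each tested gene of the members and of the other pathway lists, with list sizes in brackets, a line at each list's median and colours for the limma call. The axis is linear up to 2 and logarithmic beyond; the members lie between -0.35 and 1.08, while the targets reach 9.90.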

How the data were processed

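Liver RNA libraries of 6 SAP and 6 control samples were grouped by their titles. The authors deposited 1 table of values, taken here as TPM, a unit inferred from library sums of 993412 to 995793, since no header or label names it. The authors name edgeR in the submitters' processing notes, without a version or a role. No source used here gives the aligner, annotation, genome build or strand handling. All 12 sample columns were used.

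Genes that reached 1 TPM in 6 or more libraries were fitted with limma 3.58.1 (R 4.3.3) on log2(TPM + 1), moderating variances by empirical Bayes with a mean-variance trend and the group as the only term. P-values were two-sided, with Benjamini-Hochberg adjustment over all 11344 genes at 0.05. Changes are SAP minus control and are understated for low genes. Of rows sharing a symbol, the one with the highest median carried it; no member symbol was repeated. The fit was tested on simulated data. Members and lists were chosen with earlier results of these data known. Named were all members, the 3 tested genes per list with the smallest adjusted p plus the largest decrease past the threshold, and the 3 genes nearest in profile to the 2 members with the smallest adjusted p; others named were chosen after their values were seen. Positions are from GENCODE M21 on GRCm38, promoters from RefSeq on GRCm38.p6. Figures were drawn with matplotlib 3.10.9. Alternatives were a pseudocount of 0.1, other filters, scalings and empirical Bayes settings, the Xist split at 30 TPM, and leaving out libraries.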

Additional observations from a re-analysis of the deposited data

Results flagged for a closer look

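Among 92 groups of 6 values checked, 4 held a library far from the other 5, by a rule that chance meets in about 1 of 20 groups. The ratio of Nfkb2 to Nfkb1 was 0.876 in SAP 14, against 0.263 to 0.473 in the other SAP libraries. Tirap was 10.2 TPM in SAP 10 and 6.30 to 7.63 TPM in the other SAP libraries. Ccl5 reached 144 TPM in SAP 10 while the remaining SAP libraries held 48.6 to 79.5 TPM, and it reached 6.65 TPM in control 4 while the remaining controls held 1.65 to 3.30 TPM.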

How the results depend on the processing

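The count of members that rose was 3 with all 12 libraries and 3 to 4 when libraries were left out in turn, and that of members that fell was 0 and 0 to 1. Over all genes, leaving out a library gave 1955 to 2453 higher and 2536 to 3063 lower genes, against 2211 and 2832. Within the 7 libraries with over 30 TPM of Xist 1830 genes were lower. With quantile normalization 2950 genes were higher and 2590 lower, and with scaling factors like TMM 2785 and 2735. No member changed direction in any alternative run. The 25 named pathway genes gave 568 values under the alternatives: 559 kept direction and call, 9 lost the call (Nfkbie, Tirap, Ube2v1 and Tnfsf12) and 0 reversed; the cause was not tested. No paired analysis was possible because the groups share no replicate numbers. The alternative for count data was not run on TPM. Depth is unknown, so no counting error can be given for the genes near 1 TPM, such as Relb and Tnfaip3.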

Other observations

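Some pathway genes too low to be tested are given here as values; they were named after their values were seen. Irak3, which encodes a pseudokinase that restrains Toll-like receptor signalling, ranged from 0.79 to 2.86 TPM in SAP and from 0.13 to 0.35 TPM in control, with all 6 SAP libraries above all 6 control libraries and the highest value in SAP 14. The adaptor gene Traf1 ranged from 0.12 to 0.33 TPM in SAP and from 0.05 to 1.48 TPM in control. The matrix metalloproteinase gene Mmp9 ranged from 0.44 to 0.92 TPM in SAP and from 0 to 0.22 TPM in control. The lymphotoxin gene Ltb ranged from 0.54 to 1.71 TPM in SAP and from 0.40 to 0.92 TPM in control, with 5 of 6 SAP libraries above the control range.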
